A study of Mus musculus with 16 samples.

Results

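The comparison set regulatory T cells of Sh2d2a knockout mice (KO) against those of wild-type mice (WT) after 24 h on antibody to CD3, with 2 libraries of each genotype, 4 of the 16 libraries in the series. All groups were of the C57BL/6 strain, and the cells were sorted from spleen by flow cytometry as CD4+CD25high. They were cultured on plates coated with anti-CD3 at 1 µg/ml, and the knockouts and controls were matched for sex and age, with ages not given in the sources used here. The other libraries came from unstimulated cells (0 h) and from cells after 2 h and 8 h, again 2 per genotype and time. A measured feature, meaning 1 row of the deposited tables, entered the comparison if its normalised count was 10 or more in at least 2 of the 4 libraries of 24 h. This kept 11408 of 27802 features, 41% of them, and 99.6% of the reads of each of the 4 libraries.

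Regulatory T cells restrain other immune cells, and they need signals from the T-cell receptor to do so. Anti-CD3 engages the CD3 chains of that receptor, and the kinase Lck then phosphorylates them, which starts the cascade that changes transcription. TSAd, the product of Sh2d2a, is an adaptor that binds Lck. The question addressed at 24 h is which transcripts differ between cells with and without TSAd late in the response to receptor stimulation. The labels do not describe the knockout allele and name neither the number of mice nor a further stimulus in the culture. Whether both libraries of a group stem from different animals is not stated, and p-values then reflect only the spread between libraries, which may be technical. No library held cells kept for 24 h without the antibody. In bulk libraries of this kind, fewer cells of one type and less RNA per cell cannot be told apart.

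The first WT library of 24 h stood apart in depth. It held 10229138 reads, against 3855427 in the second WT library and 3570224 and 3428230 in the KO libraries. A count of 0 allows up to 3 reads, or 1.3 normalised counts in the first WT library and 3.44 to 3.8 in the other 3, for counting error only. Counts differed between the 2 libraries of a genotype beyond sampling error (chi-square per degree of freedom of 12.7 in WT and 9.49 in KO), and each library counted as a sample.

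Listed gene identifiers and values were mismatched, so the features are treated as unnamed and no gene or pathway is read from them. The row listed as Sh2d2a, the targeted gene, held 1.3 and 0 normalised counts in the WT libraries and 0 in both KO libraries, and it says nothing about the genotype labels. The row listed as Cd4 held 0, 0, 0 and 1.27, and that listed as Foxp3, which encodes the transcription factor of this lineage, held 0.432, 0, 1.23 and 2.53 in the same order. None of the 4 libraries had a read in the rows listed as Gapdh, a glycolytic enzyme, and Ptprc, which encodes CD45. Of 34 rows listed under marker and household genes, 15 had a mean under 10. Among these were 4 of 9 rows of regulatory T cells, 1 of 4 of B cells and 4 of 6 of genes of every cell. Other rows held counts, with means of 952 for that listed as Cd3g, 200 for Ctla4, 1070 for Cd79a and 710 for Eef1a1. Of all 27802 features, 16394 missed the threshold for entry, which is a different measure. Because of the mismatch the identity of the sorted cells was not checked by expression. A listed identifier below marks a row and nothing else.

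After 24 h, 650 of the 11408 features differed between the genotypes, 5.7% of those tested, at an adjusted p of 0.05 by limma with Benjamini-Hochberg adjustment. Of these, 449 were lower in KO (3.94% of features tested) and 201 were higher (1.76%). Lower features made up 69.1% of the calls, although 52.2% of all tested features had a difference below 0. The lower features had a median log2 difference of -0.87 and reached -4.59, and the higher ones had a median of 0.58 and reached 2.26. All log2 differences are KO minus WT on log2(value + 2), a scale that understates changes of low features. Changes of at least 2-fold were found for 175 lower and 29 higher features, of which 23 and 3 were of at least 4-fold, and those from 1.5-fold to 2-fold for 163 lower and 69 higher ones. Changes under 1.5-fold made up 111 of the lower and 103 of the higher calls. Without the first WT library the test called 130 features, 80% of them lower. Leaving out the second WT library gave 581 calls, and leaving out the first or the second KO library gave 445 or 454.

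The KO libraries lay entirely below the WT libraries for 448 of the 449 lower features and entirely above them for all 201 higher ones. Among all tested features the share with both KO libraries below was 26.1% and with both above 21.1%, so the absence of overlap with 2 libraries a side is common. A total of 98 calls, 85 lower and 13 higher, were made with each of the 4 libraries left out in turn. The lower ones among them had a median WT level of 640 normalised counts, against 368 for all lower features and 145 for all tested features. The lower features took 8.61% and 7.54% of all normalised counts in the WT libraries and 5.03% and 5.11% in the KO libraries. The higher ones took 3.65% and 4.16% in WT and 5.4% and 5.61% in KO. These shares follow from how the features were picked.

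**Figure D1:**
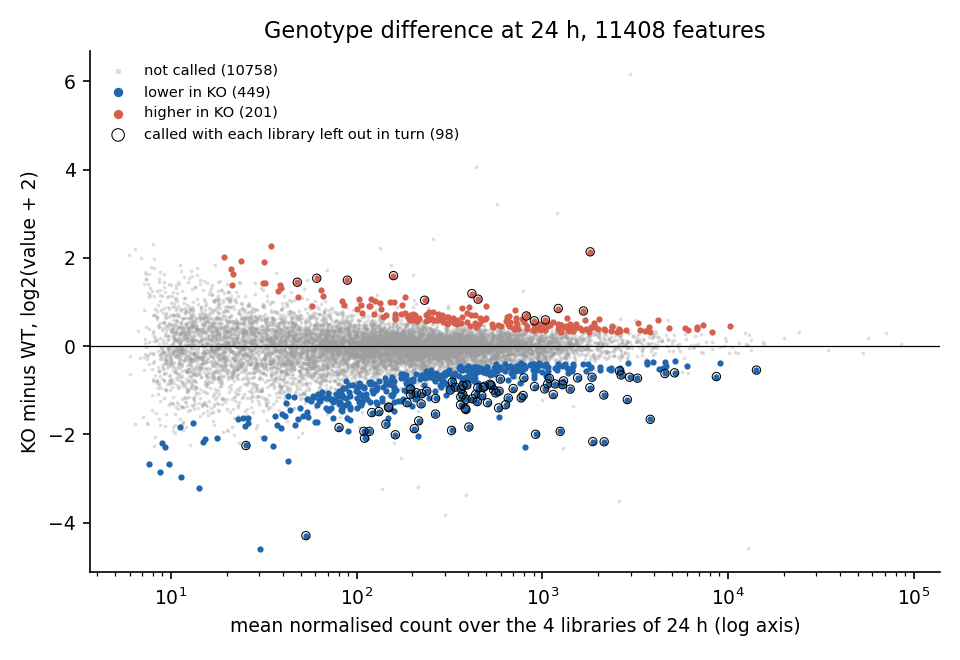
Each point is 1 of 11408 features, placed by its mean normalised count over the 4 libraries of 24 h (log axis) and its KO minus WT difference in log2(value + 2). Blue marks the 449 features called lower and red the 201 called higher in KO (limma), and black rings mark the 98 called with each library left out in turn, most of which lie below 0.

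Among features called lower with no overlap of libraries and a mean of at least 20 in the higher genotype, 442 in all, the largest differences were found for features nearly silent in KO. Of the 10 largest, 6 (ranks 1 to 4, 8 and 10) were under 10 in both KO libraries and entered the comparison only through the WT libraries, so for these 6 the direction and the lack of overlap were fixed by the threshold for entry. The feature listed as ENSMUSG00000090812 had 65.3 and 53.9 normalised counts in the WT libraries and 1.23 and 0 in the KO libraries. These gave a log2 difference of -4.59 ± 0.89 (SE; limma adjusted p = 0.00117), which rests on so few KO reads that its size depends on the pseudocount. Leaving out the first WT library gave an adjusted p of 0.0536 (limma). It was also near 0 in both genotypes before 24 h, with group means of 0.768, 0.524 and 0 in WT and 4.22, 2.09 and 0 in KO at 0, 2 and 8 h. At 24 h the WT libraries thus stood far above every other group, and the KO libraries were under the level of 3 reads. The feature listed as ENSMUSG00000026805 had 128 and 77.9 in WT and 1.23 and 6.33 in KO at 24 h, a log2 difference of -4.3 ± 0.6 (SE; limma adjusted p = 1.87e-05), and it was called with each library left out. Its WT means were 3.96, 4.23 and 10.5 at the earlier times, and its KO means were 8.09, 6.23 and 14.

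The next lower features by size differed in level. Rank 3 had 35.9 and 18.3 in WT and 2.46 and 0 in KO, and rank 4 had 19 and 24.1 in WT and 2.46 and 0 in KO. These are differences among few reads. Both calls ended without the first WT library, and that of rank 4 also without the second WT or the second KO library. Rank 6 was an abundant feature, with 1865 and 841 in WT and 272 and 241 in KO. Its KO values were near those at 0 h in KO, where the mean was 244, while the WT mean had been 334 at 0 h. Its 2 WT libraries differed by more than its KO libraries did, and its call ended without either KO library (limma adjusted p of 0.0653 and 0.079) and when the 4 libraries of 24 h were fitted alone (0.252). Rank 9 was the most abundant of the 10, with 3472 and 3586 in WT and 810 and 758 in KO and a log2 difference of -2.17 ± 0.15 (SE; limma adjusted p = 5.01e-10). The WT libraries of rank 9 were 4.49-fold above the KO libraries on the scale of the test and close to each other in both genotypes. Rank 9 was already called lower in KO at 8 h, with a log2 difference of -1.4 (limma adjusted p = 3.51e-06). Rank 7 had group means of 31.8 in WT and 14.1 in KO at 0 h, a difference that did not pass the test (limma adjusted p = 0.486), and of 59.5 and 11.2 at 24 h. Of the 10 lower features, 3 (ranks 2, 8 and 9) were called with each library left out, and the other 7 lost the call without at least 1 library, with a highest adjusted p of 0.0536 to 0.168 (limma). edgeR called all 10, and DESeq2 gave no adjusted p for 8 of them. With reads thinned to the shallowest library the calls of ranks 4, 7 and 8 ended, with an adjusted p of 0.0591 for rank 8 (limma).

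The features called higher in KO reached smaller sizes, and all 201 of them met the rule for ranking. The feature listed as ENSMUSG00000024498 had 6.05 and 17.2 in the WT libraries and 57.9 and 57 in the KO libraries. These gave a log2 difference of 2.26 ± 0.56 (SE; limma adjusted p = 0.0202), and with the first WT library left out the adjusted p was 0.312, with the KO libraries left out 0.114 and 0.102. The feature listed as ENSMUSG00000042073 had 595 and 732 in WT and 2404 and 3520 in KO, a log2 difference of 2.14 ± 0.19 (SE; limma adjusted p = 3.42e-05). It was the most abundant of the 10, it was called with each library left out, and it was already higher in KO at 0, 2 and 8 h by 1.8, 1.7 and 1.6 on the log2 scale (limma adjusted p of 0.00162, 0.00128 and 0.00113). Its difference at 24 h exceeded that at 0 h by 0.35 ± 0.27 (SE), which did not pass the test (limma adjusted p = 0.695).

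Rank 3 among the higher features had 7.78 and 4.58 in WT and 20.9 and 44.3 in KO, and it entered the comparison only through the KO libraries, which fixed its direction. At 0 h its means were 9.97 in WT and 6.53 in KO. Rank 4 had 10.8 and 6.88 in WT and 36.9 and 40.5 in KO, and its KO means at 0, 2 and 8 h were 45.4, 42.2 and 51.9 against 9.2, 10.1 and 8.09 in WT. Of these earlier differences only that at 8 h passed the test (limma adjusted p of 0.0607, 0.0837 and 0.0025), and the 24 h call ended with any 1 library left out. Rank 8 had 72.2 and 82.5 in WT and 212 and 266 in KO, a log2 difference of 1.6 ± 0.19 (SE; limma adjusted p = 1.2e-06), and it was called with each library left out. The WT mean was 152 at 0 h and 77.4 at 24 h, while the KO mean was 216 and 239. At 8 h rank 8 was already called higher in KO, with a log2 difference of 0.95 (limma adjusted p = 0.00521). Ranks 9 and 10 had WT means of 47.7 and 88.6 at 0 h and of 30.2 and 45.3 at 24 h. Of the 10 higher features, 4 (ranks 2, 8, 9 and 10) were called with each library left out, and the other 6 had a highest adjusted p of 0.088 to 0.358 (limma). The call of rank 1 also ended without the trended and robust prior and with no filter, that of rank 3 with no filter and with thinned reads, and that of rank 4 with thinned reads. That of rank 5 ended without the prior, that of rank 6 under 5 of 10 other settings and that of rank 7 under 4 of 11. edgeR called 9 of the 10, all but rank 6 (edgeR adjusted p = 0.0933), and DESeq2 gave no adjusted p for 2.

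**Figure D2:**
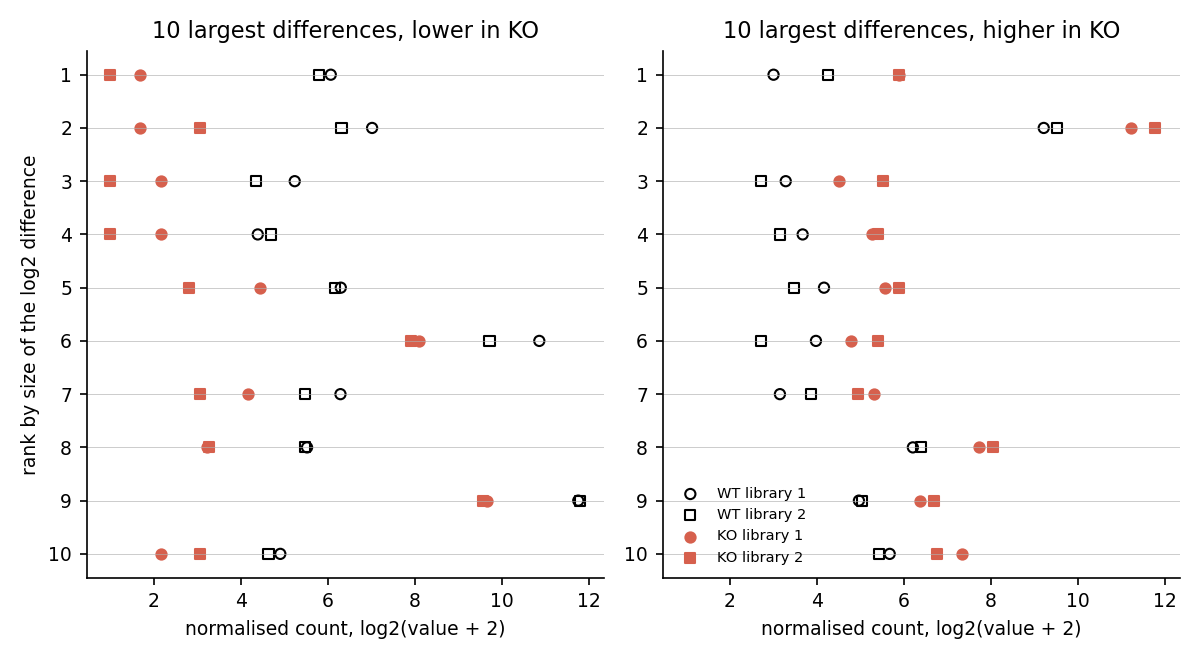
Each row is 1 feature, ranked by the size of its log2 difference at 24 h, lower in KO on the left and higher in KO on the right. Points are the 4 libraries on log2(value + 2), open for WT and filled for KO; the lower features of ranks 1 to 4 sit near the bottom of the scale in KO, and rank 9 and the higher rank 2 stand out by their level.

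The most abundant features that differed did so by less than 2-fold. Among the lower ones, the feature of highest level had 17900 and 15910 in WT and 10940 and 12240 in KO, a log2 difference of -0.54 ± 0.098 (SE; limma adjusted p = 5.01e-04). The third by level had 10440 and 10970 in WT and 6487 and 6768 in KO, with a log2 difference of -0.69 ± 0.089 (SE; limma adjusted p = 5.81e-06). Both were called with each library left out, and the WT means of the third were 7200 at 0 h and 10700 at 24 h while its KO means were 6700 and 6630. The third was already called lower in KO at 8 h, with a log2 difference of -0.57 (limma adjusted p = 3.04e-04). The other 3 of the 5 most abundant lower features had log2 differences of -0.33 to -0.46 and lost the call without the first WT library. The call of the most abundant one ended without the trended and robust prior (limma adjusted p = 0.0726).

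Among the higher ones, the feature of highest level had 7865 and 9575 in WT and 11560 and 12210 in KO. All of the 5 most abundant higher features had log2 differences between 0.33 and 0.48, and none was called without the first WT library. Of the 5 calls, 2 ended on leaving out the first KO library, 4 on leaving out the second, and all 5 without the trended and robust prior. The third by level had WT means of 9280 at 0 h and 6160 at 24 h and KO means of 8500 and 8580.

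The features with the lowest p-values were picked for description after their values were seen. The feature with the lowest p had 6175 and 5415 in WT and 2065 and 1618 in KO, a log2 difference of -1.66 ± 0.12 (SE; limma adjusted p = 2.54e-11). In WT its group means were 1500, 1550, 3050 and 5790 at 0, 2, 8 and 24 h, and in KO they were 1700, 1500, 1790 and 1840. The third by p had 914 and 778 in WT and 329 and 308 in KO, with means at 0 h of 334 and 307. At 0 h neither passed the test between genotypes (limma adjusted p of 0.664 and 0.857). Both were already called lower in KO at 8 h, with log2 differences of -0.77 and -0.81 (limma adjusted p of 1.82e-04 and 0.00129). On the higher side, the feature with the lowest p had 244 and 265 in WT and 591 and 573 in KO, a log2 difference of 1.19 ± 0.14 (SE; limma adjusted p = 9.26e-07). Its WT mean had been 520 at 0 h and its KO mean 532, so the 0 h and 24 h means were further apart in WT than in KO. This feature was already called higher in KO at 8 h, with a log2 difference of 0.82 (limma adjusted p = 6.6e-04).

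What could be called depended on the level of a feature. The tested features were split into 4 equal groups of 2852 by their mean over the 12 libraries before 24 h, which enter the comparison at 24 h only through the estimate of spread. In the lowest group, from 1.1 to 45.3 normalised counts, 1.82% of features were called lower and 0.386% higher, and the smallest called log2 difference was 1.1. In the highest group, above 353 normalised counts, 5.75% were called lower and 4.31% higher, and the smallest called difference was 0.31. Lower calls exceeded higher calls in each of the 4 groups, by 52 to 11, 113 to 18, 120 to 49 and 164 to 123 from the lowest to the highest level. The median standard error fell from 0.49 to 0.13 across them. The 95% confidence interval of the difference lay within 1.5-fold in either direction for 4209 features, 36.9% of those tested, and 22 of these were called. It reached past 1.5-fold for 6571 features that were not called, whose difference is unsettled at this depth and number of libraries. It lay wholly beyond 1.5-fold for 164 lower and 23 higher features.

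Of the 11408 features, 126 met the threshold only through the WT libraries and 102 only through the KO libraries, with the other genotype under 10 in both. For these features the threshold fixed the direction. Of the 126, 14 were called lower, against 3.94% of all tested features, and of the 102, 1 was called higher, against 1.76%. At the threshold itself the second-highest of the 4 values was 10.1 in the features just inside and 9.94 in those just outside, with 149 features between 10 and 11 and 165 between 9 and 10. Outside lay 16394 features, of which 9125 had no read in the 4 libraries and 804 reached 10 in 1 library only.

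Some large values were seen in 1 library only. Among all 27802 features, 12 had the first WT library alone at 100 or more and at least 8-fold above the other 3 libraries. This held for 5 features in the second WT library and for 3 and 2 in the KO libraries. Among the 11408 tested features the counts were 5, 3, 3 and 1 in the same order. The highest such values were 1450 against at most 55 in the first WT library, 10200 against 72.2 in the second, 11860 against 17.7 in the first KO library and 1864 against 5.73 in the second. Each of these had the other library of its group among the low values, and the last was not among the tested features.

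Whether the difference at 24 h departed from that at an earlier time, in either direction, was tested directly, as a difference between the genotype differences. Against 0 h, 99 features differed (0.868% of those tested), 68 towards lower and 31 towards higher in KO. Against 2 h the number was 41 (0.359%), against 8 h it was 3 (0.0263%), and against the mean of the 3 earlier times 135 (1.18%), all by limma. For 0, 2 and 8 h there were 1363, 1134 and 956 features at an unadjusted p under 0.05. edgeR called 38, 10 and 0 features, the last with 904 at an unadjusted p under 0.05. Of the 99 features, 62 were among those called lower and 29 among those called higher at 24 h, which share the libraries of 24 h with this test. From 0 over 2 and 8 to 24 h, the median log2 differences of the 62 were 0.14, -0.075, -0.41 and -1. Those of the 29 were -0.16, 0.0015, 0.14 and 0.59. Both sets were picked on the libraries of 0 h and 24 h, so their medians at these times follow in part from the picking. Single libraries moved these counts. Against 0 h the count was 23 when the first WT library of 24 h was dropped and 175 when the second was, 45 with the second KO library of 24 h dropped, and 65 and 49 with the first WT and the second KO library of 0 h dropped. Against 2 h, dropping the first or the second WT library of 24 h gave 8 or 70, and dropping the second KO library of 24 h gave 15. Dropping the first or second WT library of 2 h gave 27 or 102, and dropping those of KO gave 7 or 17. Against the mean of earlier times the count was 16 with the first WT library of 24 h dropped, 34 with the second KO library of 24 h dropped, and 71 to 194 with each other library dropped.

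The 3 features whose difference at 24 h departed from that at 8 h are given in turn. The lower feature of rank 2, with 103 on average in WT at 24 h and 10.5 at 8 h, had a log2 difference of differences of -4.7 (limma adjusted p = 0.0237). The feature with the lowest p had one of -0.89 (limma adjusted p = 0.0237), with WT means of 3050 at 8 h and 5790 at 24 h and KO means of 1790 and 1840. The third had KO means of 2.52 at 8 h and 22.3 at 24 h, against 41.1 and 11 in WT, and a value of 4 (limma adjusted p = 0.0165). Its KO values at 8 h were 2.18 and 2.86, under the level of 3 reads in those libraries (6.55 and 4.29), so this difference rests on few reads. At 24 h it had 11.7 and 10.3 in WT and 33.3 and 11.4 in KO, which did not pass the test. Dropping the second WT library of 8 h left 1 such feature, and dropping the second WT library of 24 h gave 24. It was 8 with the first KO library of 24 h dropped and 7 with either KO library of 8 h dropped.

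Features that differed between genotypes at an earlier time were followed to 24 h, in libraries that the earlier comparisons use only for the estimate of spread, so a feature of small spread is more easily called in both. At 0, 2 and 8 h the test called 20, 26 and 98 features between genotypes (0.175%, 0.228% and 0.859%). Of 79 features lower in KO at 8 h, 55 (69.6%) were called lower at 24 h, and of 23 lower at 2 h and 14 lower at 0 h, 18 and 11 were, against 3.94% of all tested features. With the first WT library of 24 h left out these counts were 35, 10 and 8, against 0.912%. Of the features higher in KO at 8, 2 and 0 h, 11 of 19, 2 of 3 and 2 of 6 were called higher at 24 h, against 1.76%. Without that WT library 5, 1 and 1 were, against 26 of all 11408 features. Called in the same direction at all 4 times were 6 lower and 2 higher features. The difference was larger at 24 h than at each earlier time for 421 of the 449 lower and 194 of the 201 higher features, a count that picking them at 24 h favours.

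Of 68 features that WT cells raised early in the response, 67 had a difference below 0 at 24 h. Between 0 and 8 h, 70 features changed in WT cells (0.614% of those tested), 68 of them upwards, a choice made in libraries that the 24 h difference uses only for the estimate of spread. At 24 h, 50 of the 68 (73.5%) were called lower in KO and 0 higher, against 3.94% and 1.76% of all tested features. By edgeR, which called 4.73% of all features and 3.09% as lower, 45 of the 68 were lower and 0 higher. At an unadjusted p under 0.05 (limma) 56 were lower and 0 higher, against 1325 and 788 of all 11408 features. Both KO libraries lay below both WT libraries for 62 of the 68, against 26.1% of all features. Their median log2 difference was -0.85, with quartiles of -1.2 and -0.47, against -0.016 over all tested features. With the first WT library of 24 h left out, 28 of the 68 were called lower, against 0.912% of all features. With each library left out in turn, 28 of the 68 kept the call as lower throughout, against 85 of all 11408 features. The 68 features were of higher level than most, with a median of 295 normalised counts before 24 h against 140. Their median standard error was 0.18 against 0.22.

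The 3 features of this group with the lowest p for the early rise were picked for description after their values were seen. The one with the lowest p for the early rise had group means of 97.4, 717, 731 and 471 in WT at 0, 2, 8 and 24 h and of 135, 346, 267 and 272 in KO. Its 24 h values were 480 and 463 in WT and 262 and 283 in KO, a log2 difference of -0.79 ± 0.18 (SE; limma adjusted p = 0.00539). It was lower in KO at 2 h and 8 h as well (limma adjusted p of 0.00128 and 7.3e-06), and its 24 h call ended when the first WT library (0.0979) or the first KO library (0.0586) was left out. The second by that p had WT means of 95, 263, 472 and 516 and KO means of 106, 128, 172 and 134. At 24 h it had 607 and 425 in WT and 137 and 131 in KO, a log2 difference of -1.91 ± 0.21 (SE; limma adjusted p = 2.92e-07) that was called with each library left out. The third had 620, 913, 1510 and 1430 in WT and 846, 770, 959 and 973 in KO, and the genotypes did not pass the test at 0 h (limma adjusted p = 0.177). Its 24 h difference was -0.55 ± 0.12 (SE; limma adjusted p = 0.00595), and the adjusted p became 0.2 or 0.0583 when the first WT or the second KO library was left out. Without the trended and robust prior the 24 h calls of the first and the third ended as well.

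Over the group, the medians of single libraries, as log2 differences from the WT mean at 0 h, were 1 and 1.1 in WT at 8 h and 1.3 and 1.1 at 24 h. In KO they were 0.34 and 0.39 at 8 h and 0.38 and 0.34 at 24 h, from 0.13 and 0.14 at 0 h. The WT medians at 2 h were 0.45 and 0.36. The KO medians at 24 h thus overlapped those of WT at 2 h and lay below both of WT at 8 h and 24 h.

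**Figure D3:**
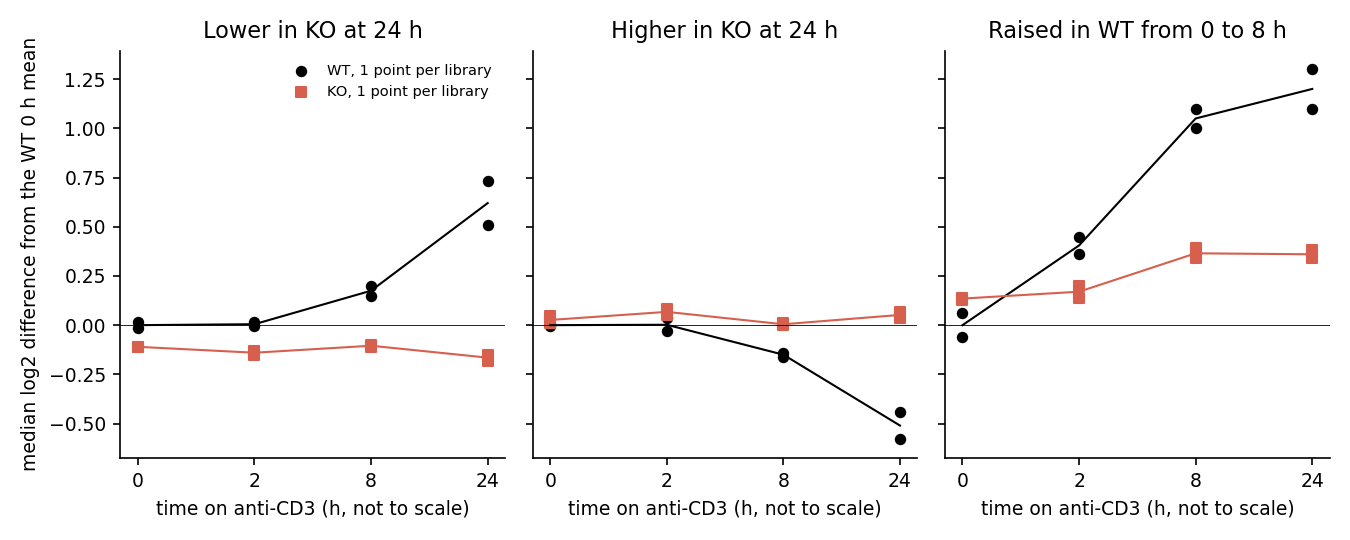
Points are medians over a set of features in 1 library, as the log2 difference from the WT mean at 0 h, against time on anti-CD3 (axis not to scale), with lines through the group means. The sets are the 449 features called lower and the 201 called higher in KO at 24 h, both picked on the 24 h libraries, and the 68 raised in WT from 0 to 8 h. For the 68, the 24 h libraries entered only through the threshold for entry and the estimate of spread. In all 3 sets the WT medians move further from 0 by 24 h than the KO medians.

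For the 449 lower features, the library medians on the same scale were 0.73 and 0.51 in WT at 24 h and -0.15 and -0.18 in KO. In KO they had been -0.11 and -0.11 at 0 h. For the 201 higher features they were -0.58 and -0.44 in WT and 0.038 and 0.066 in KO. From 0 to 24 h the median log2 change of the lower features was 0.61 in WT and -0.037 in KO, and that of the higher features was -0.51 and 0.028. These changes share the libraries of 24 h with the comparison that picked the features, so they describe the sets and support nothing.

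The share called lower was larger in features with a larger early rise in WT, and no such order was seen for the share called higher in features with an early fall. Among the 8364 features with a mean of at least 50 before 24 h, 4.67% were called lower and 2.26% higher in KO at 24 h. Where the WT level had changed by less than 0.25 on the log2 scale between 0 and 8 h (6390 features), the median difference at 24 h was -0.0041 and 3.32% were called lower. With a WT rise of 0.25 to 0.5 (792 features) the median was -0.17 and 9.6% were lower. With a rise of 0.5 to 1 (208 features) they were -0.37 and 24%, and with a rise above 1 (46 features) -0.74 and 47.8%. On the other side, features that had fallen in WT by 0.25 to 0.5 (785 features) had a median of 0.056, with 5.86% called higher and 3.44% lower. With a fall of 0.5 to 1 (120 features) the median was 0.099, with 3.33% called in each direction. With a fall above 1 (23 features) it was 0.25, with 0 called in either direction.

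The same grouping by the change in KO cells gave a flatter picture. Features that had risen in KO by 0.5 to 1 from 0 to 8 h (187 features) had a median difference at 24 h of -0.14, and 7.49% of them were called lower. Those that had changed in KO by less than 0.25 (6404 features) had a median of -0.01, with 4.61% lower and 2.61% higher. Only 14 features had risen in KO by more than 1, too few to read, with a median of -0.64 and 1 call. KO libraries of 0 and 8 h were shallower than the WT ones, at 2065662 to 4041719 against 2726097 to 8623647 reads, and the part of this depth in the flatter picture was not tested.

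**Figure D4:**
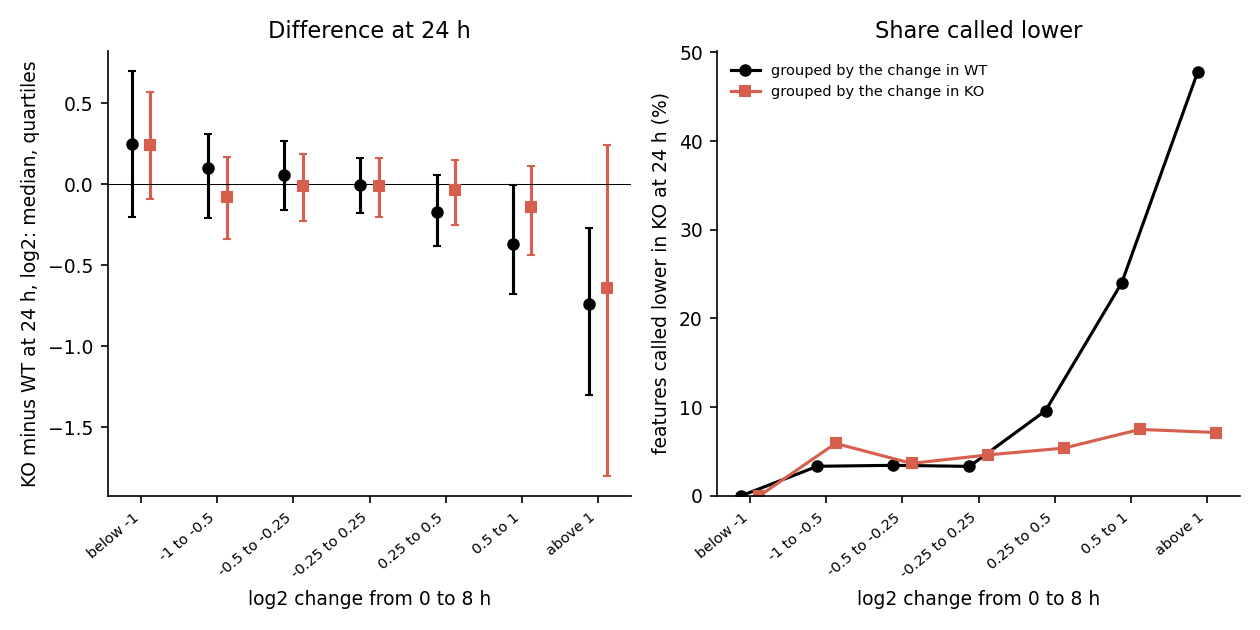
Features of a mean of at least 50 before 24 h are grouped by their log2 change from 0 to 8 h in WT (black) or in KO (red). The left panel gives the median and quartiles of the KO minus WT difference at 24 h and the right panel the percent called lower in KO; the share climbs to 47.8% with the WT rise and stays at or under 7.49% in each group by the KO change, of which the last holds 14 features.

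As whole profiles, the KO means of 24 h lay nearer to those of each earlier group, of either genotype, than to the WT means of 24 h. Over the same 8364 features, the median absolute log2 difference between group means was 0.187 between KO and WT at 24 h. From KO at 24 h it was 0.136, 0.12 and 0.134 to KO at 0, 2 and 8 h, and 0.143, 0.128 and 0.131 to WT at 0, 2 and 8 h. The unstimulated groups were thus no nearer than the groups of 2 h and 8 h. The WT means of 24 h were 0.194, 0.179 and 0.148 from WT at 0, 2 and 8 h. Group means that differed by more than 2-fold were counted for 185 features (2.21%) between the genotypes at 24 h, for 35 (0.418%) between KO at 24 h and 0 h, and for 145 (1.73%) between WT at 24 h and 0 h. These distances share libraries and are given as a description.

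Between single libraries, the 2 WT libraries of 24 h were 0.158 apart and the 2 KO libraries 0.194, the WT pair being the nearer. The first KO library was 0.164 to 0.183 from the earlier KO libraries and 0.178 to 0.206 from the earlier WT libraries. For the second KO library these ranges were 0.164 to 0.203 and 0.167 to 0.202. The KO pair was thus no nearer than many pairs across times, and the order among the earlier groups was not tested. The first WT library was 0.257 and 0.236 from the KO libraries and the second 0.215 and 0.205, so the library of greatest depth was also the one farther from KO.

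**Figure D5:**
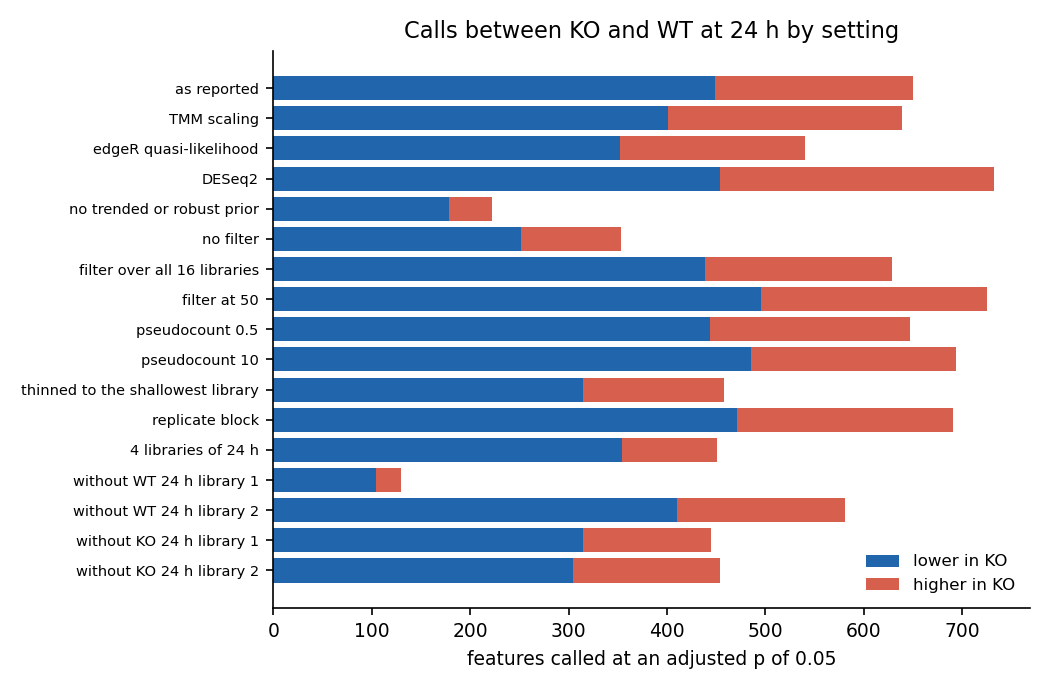
Bars give the number of features called between KO and WT at 24 h, split into lower (blue) and higher (red) in KO, as reported and under each other setting. Lower calls outnumber higher ones in every bar, and the total falls from 650 to 130 without the first WT library of 24 h.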

How the data were processed

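Polyadenylated RNA was sequenced. The tools named, per the submitters' processing notes, are DESeq2, HTSeq and STAR (version 2.6.0a), with build GRCm38.p6. Counting settings and strand were not found in the labels. The deposited values are a normalised signal: whole reads divided by 1 factor per library, whose calculation is not given in the sources used here. Dividing by the value of 1 read gave whole reads for all values within 0.01 reads (largest deviation 3.76e-05). A duplicate row was removed (1). Of 27802 identifiers, 27789 had a symbol.

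Members, lists and tests were chosen with earlier results of these data known. limma 3.58.1 (R 4.3.3; trended, robust prior) was fitted to log2(value + 2) in all 16 libraries with a mean for each of 8 groups, leaving 8 residual degrees of freedom. P-values were adjusted over all 11408 features (Benjamini-Hochberg). edgeR 4.0.16 and DESeq2 1.42.0 on recovered reads served as alternatives. The script was tested on simulated reads. Depth was 2065662 to 10229138 reads per library.

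Ranked features were the 10 largest called differences per direction with no overlap of libraries and a mean of at least 20 in the higher group, and the 5 of highest level. Because features are unnamed, 2 per direction carry their listed identifier. Lowest-p and early-raised examples were chosen after their values were seen. Figures were drawn with matplotlib 3.10.9.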

Additional observations from a re-analysis of the deposited data

Results flagged for a closer look

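Results are listed here where the genotype difference at 24 h departed from that at another time by the test of the difference itself (limma adjusted p under 0.05). This held for 99 features against 0 h, 41 against 2 h, 3 against 8 h and 135 against the mean of the 3 earlier times.

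Among the features described, the log2 difference of differences against 0 h was -5.4 and -5.1 for the lower features of rank 1 and 2 and -2.1 for rank 9. It was -1.8 for the feature with the lowest p, -1.3 for the third by p, and -0.59 and -0.57 for the lower features of rank 3 and 4 by level. The 3 early-raised features had -1.3, -2.1 and -1. On the higher side it was 1.1 for rank 8, 1.2 for the feature with the lowest p, and 0.61 and 0.62 for those of rank 3 and 5 by level. Against 8 h the values were -4.7 for the lower rank 2, -0.89 for the feature with the lowest p and 4 for the low-level feature that did not pass the test at 24 h. With 2 libraries a group, no group was large enough for a check of single samples.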

How the results depend on the processing

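The 650 calls at 24 h became 222 without the trended and robust prior and 353 with no filter, and ranged from 130 to 581 when a library was left out; all other settings gave 451 to 732, with most calls lower in KO under each setting run. DESeq2 gave no adjusted p for 1770 of the 11408 features. The early-raised group had 28 to 44 members called lower with a library of 24 h left out. The counts against 0 h, 2 h, 8 h and the mean of earlier times moved more. They were 38, 10, 0 and 52 by edgeR, 200, 130, 21 and 246 by DESeq2, 8, 0, 0 and 2 without the trended and robust prior, and 36, 10, 0 and 37 with no filter. Of the DESeq2 calls 57%, 54.6%, 42.9% and 46.3% were towards lower in KO, against 68.7%, 70.7%, 66.7% and 59.3% as reported by limma. Of the edgeR calls against 0 h, 2 h and the mean of earlier times, 78.9%, 100% and 67.3% were towards lower. The counts of 0 had 904 (edgeR), 976 and 835 (prior) and 1389 (no filter) features at an unadjusted p under 0.05. The count of 3 against 8 h was also 7 with a filter at 50, 10 with a pseudocount of 10 and 5 with a replicate block. With libraries left out, these 4 counts ranged from 23 to 175, 7 to 102, 1 to 24 and 16 to 194. The cause was not tested. Replicate numbers were not taken to pair the samples. The deviations of WT and KO at 24 h correlated at -0.057. Over all 28 pairs of groups the values ran from -0.16 to 0.2, and 8 exceeded 0.1. Whether libraries of the same replicate number share an origin was not tested. With the replicate block 691 features were called at 24 h. For single features, 91 of 586 values under other settings lost the call and 0 changed sign. Values to which DESeq2 gave no adjusted p, or whose feature a filter removed, were not counted. The 586 include those of the low-level feature that did not pass the test at 24 h and so had no call to lose. Depth limits the 2852 features of lowest level, where no call was under 1.1 on the log2 scale.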
